A study of Rattus norvegicus with 16 samples.

Results

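Potassium channel genes were examined in whole hippocampus of Sprague-Dawley rats after traumatic brain injury (TBI). The genes were chosen by name: every probe of the array whose gene name began with Kcn, one or more letters and a digit was taken, which gave 120 probes for 90 genes among 30367 probes for 26583 gene names. Each gene was read from its probe with the highest mean signal, and the remaining probes of 26 genes with more than 1 probe were used as a check. Of the 90 genes, 81 were bright enough to be tested. The 9 that were not were Kcna3, Kcna10, Kcne3, Kcnh5, Kcnj1, Kcnj13, Kcnk15, Kcnk18 and Kcnmb1.

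The 16 single-colour arrays covered 6 groups. Naive rats (3 arrays) had no treatment, and Sham rats (2 arrays) were anesthetized and surgically prepared without being injured. TBI rats (3 arrays) received a severe fluid percussion injury, in which a pulse of fluid against the exposed dura deforms the brain, and had no drug. The other injured groups received PMI-006 by oral gavage (TBI+PMI-006, 3 arrays), JM6 by oral gavage (TBI+JM6, 3 arrays) or estradiol, which the labels call E33 (TBI+E2, 2 arrays). Brains were taken 24 h after injury, and the microdissected tissue held all hippocampal subfields and cell types. Groups of 3 rats are stated in the methods. The labels do not say more of where each replicate came from, so the p-values measure the spread between these samples. The labels name 2 RNA amplification reagents without saying which arrays received which. A vehicle group was not analysed here.

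Potassium channels let potassium leave the cell, which returns the membrane to rest and limits repetitive firing. Voltage-gated (Kv) channels repolarize the action potential, and silent Kv subunits form no channel alone but modify other Kv subunits. Calcium-activated channels follow spikes with a hyperpolarization, inward rectifiers and two-pore channels set the resting potential, and beta subunits and Kv channel-interacting proteins (KChIPs) tune the pore-forming subunits. In the hippocampus, Kv4 channels with KChIPs dampen dendritic excitability of pyramidal cells, KCNQ channels carry the M-current, and astrocytes clear potassium through the Kcnj10 channel.

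The promoters of 4 genes are shown because Kcnj4 was lower in TBI than in both control groups, whereas Kcnab2, Kcnip2 and Kcng4 were higher in Sham than in Naive rats and lower in TBI than in Sham rats. Each sequence holds the 250 bases before the RefSeq start of the gene in the rat build GRCr8, read on the minus strand, with capitals marking matches to a CRE core (TGACG), a GC box (GGGCGG) or an E-box (CANNTG), searched on both strands with no overlap between matches shown. The positions are chr7:112954548-112954797 for Kcnj4, chr5:168270761-168271010 for Kcnab2, chr1:254613899-254614148 for Kcnip2 and chr19:64597889-64598138 for Kcng4.
Kcnj4: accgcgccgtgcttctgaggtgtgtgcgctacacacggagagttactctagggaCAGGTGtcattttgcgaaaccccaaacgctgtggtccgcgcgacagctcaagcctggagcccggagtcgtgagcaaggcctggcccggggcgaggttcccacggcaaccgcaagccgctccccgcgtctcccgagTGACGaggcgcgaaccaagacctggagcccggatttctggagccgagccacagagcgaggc
Kcnab2: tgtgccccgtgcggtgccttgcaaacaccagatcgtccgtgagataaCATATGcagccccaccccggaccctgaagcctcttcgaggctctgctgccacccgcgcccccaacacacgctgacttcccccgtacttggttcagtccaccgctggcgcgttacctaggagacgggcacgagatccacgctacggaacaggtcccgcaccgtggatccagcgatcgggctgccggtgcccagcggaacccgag
Kcnip2: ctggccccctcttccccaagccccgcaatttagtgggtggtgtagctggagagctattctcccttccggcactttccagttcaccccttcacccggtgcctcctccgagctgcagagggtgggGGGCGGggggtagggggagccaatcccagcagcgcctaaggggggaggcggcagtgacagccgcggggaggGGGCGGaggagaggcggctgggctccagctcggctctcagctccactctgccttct
Kcng4: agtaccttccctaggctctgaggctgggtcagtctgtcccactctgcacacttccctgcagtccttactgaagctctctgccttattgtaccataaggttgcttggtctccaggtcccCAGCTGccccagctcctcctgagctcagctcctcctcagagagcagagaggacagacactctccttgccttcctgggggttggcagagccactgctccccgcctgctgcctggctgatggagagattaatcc
Kcnj4 held a CRE core 61 bases and an E-box 196 bases before its start. Kcnip2 held GC boxes 127 and 56 bases before its start, and Kcnab2 and Kcng4 held an E-box each, 203 and 132 bases before theirs. These are matches of letters only. Of 33469 RefSeq windows of this length, 18.2% held the CRE core, 30.5% the GC box and 65.5% the E-box, against 19.4%, 48.4% and 58.1% of the 62 potassium channel genes with a window.

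A level is given here as log2 of the probe's signal relative to the 75th percentile of the probes well above background on the same array, so that levels of one gene can be compared between arrays but levels of different genes cannot. The arrays were on 4 slides in 2 scanning sessions. Naive, Sham and TBI arrays made up the first session, with 16274 to 18239 probes well above background, and the drug groups made up the second, with 20256 to 24979. Of the 81 tested genes, 7 were above background on no array of the first session and were tested only through drug groups. The neuronal markers of the labelled tissue were present: all 8 tested were above background on every array of the Sham and TBI groups. Markers of choroid plexus, the tissue that makes cerebrospinal fluid, set 3 arrays apart, with a summed linear level of 77.6 in Naive 2, 124 in Sham 1 and 154 in TBI+PMI-006 1, against 7.66 or less on the other 13.

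Injured rats had higher Kcnn4, Kcnk13 and Kcnj8 and lower expression of 9 other potassium channel genes than Sham rats. A gene counted as changed when its limma p-value, adjusted by Benjamini-Hochberg over all tested probes, was under 0.05. By this rule 12 of 81 genes changed, against 9.38% of all probes, and the split was 3 higher (2.92% of all probes) and 9 lower (6.46%). The median log2 difference of the 81 genes was -0.37, with 57 below 0, and that of all probes was -0.03. The TBI and Sham arrays did not overlap in 37 of the 81 genes, among them each of the 12. The share over all probes was not counted, so this number is no result about the potassium channel genes.

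**Figure D1:**
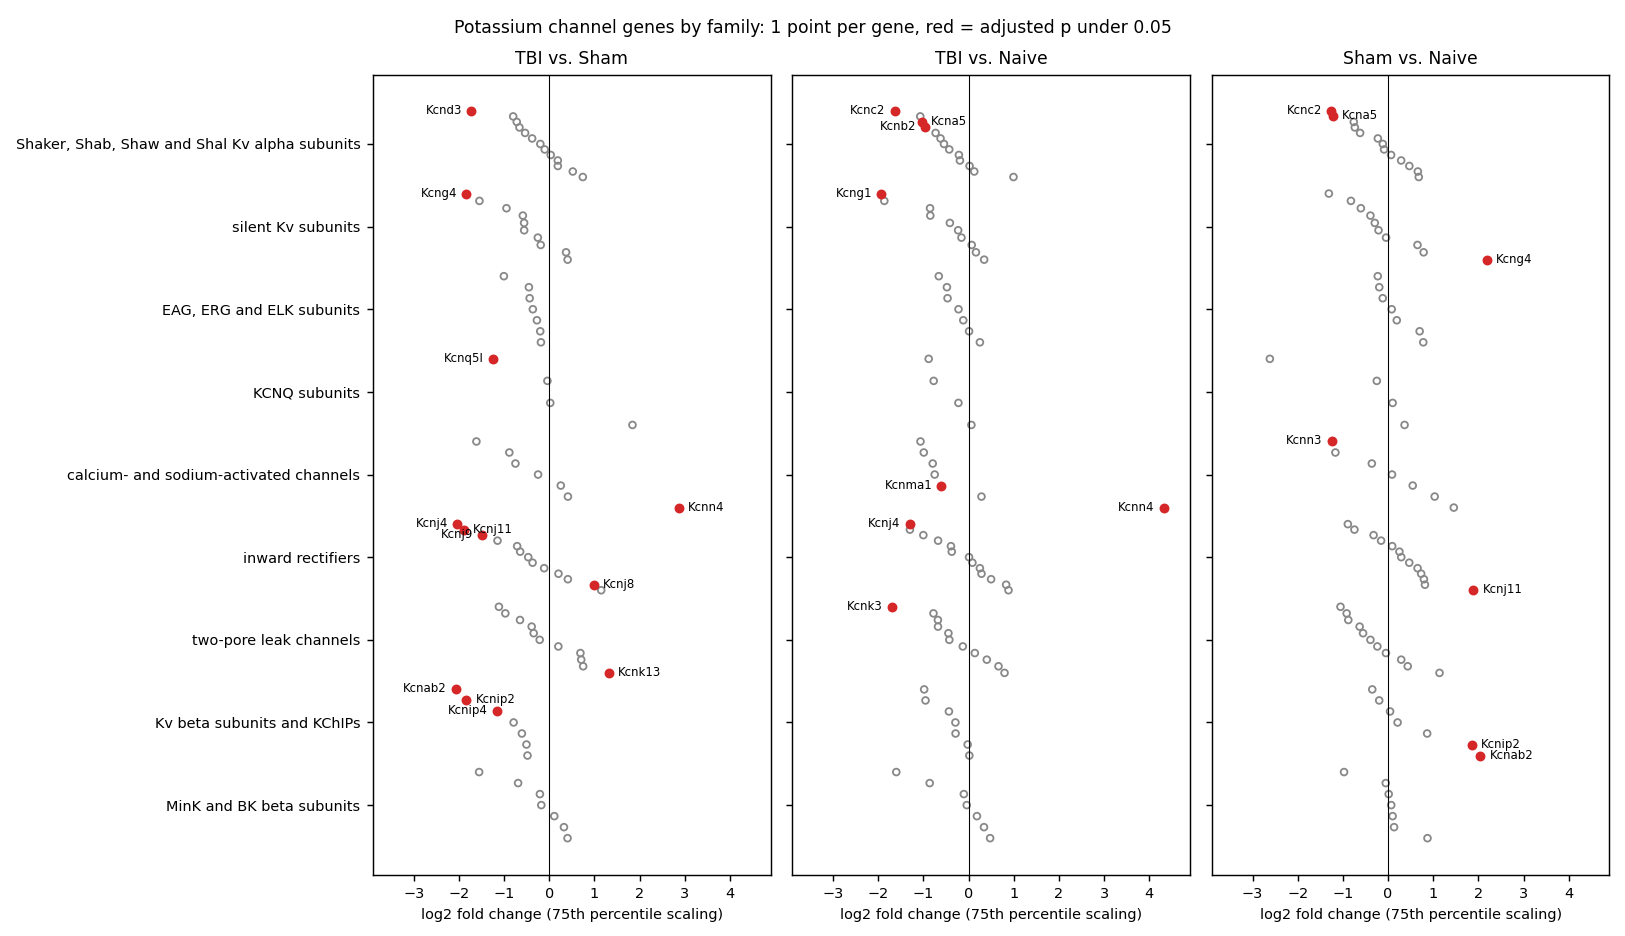
Log2 fold change of tested potassium channel genes by family in TBI vs. Sham, TBI vs. Naive and Sham vs. Naive, with the x axis in log2 units of the 75th percentile scaling. Each point is a gene, and red points, which are named, had an adjusted p under 0.05. A few tested genes are not drawn, and 12, 8 and 7 red points are shown in the 3 comparisons.

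Kcnn4, the intermediate-conductance calcium-activated channel of microglia and blood cells, had levels of -4.29, -1.81 and -2.04 in the TBI arrays. In Sham it was at -6.19 and -4.97, and in Naive at -7.45, -6.57 and -7.08. The TBI 1 array was thus nearer to Sham than the other TBI arrays were. The difference of TBI from Sham was 2.87 ± 0.68 (SE) on the log2 scale (adjusted p = 0.0249), and another Kcnn4 probe gave 3.04 (adjusted p = 0.0412). The call was lost when either Sham array, TBI 2 or TBI 3 was left out, with differences between 2.26 and 3.66 over all 5 such fits. The probe lies at chr1:79625914-79627646 of rn4, the build of the deposited probe positions.

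Kcnk13, a two-pore channel that carries the resting potassium current of microglia, was at -2.38, -2.35 and -2.20 in TBI and at -3.79 and -3.47 in Sham. The Naive arrays, at -3.07, -2.57 and -2.49, lay between the Sham and TBI arrays. It rose by 1.32 ± 0.38 (adjusted p = 0.0486), and this call was lost under quantile normalization (adjusted p = 0.05001). The call was also lost when any 1 TBI array was left out. Leaving out each TBI or Sham array gave differences from 1.16 to 1.48. The second Kcnk13 probe gave 1.15 (adjusted p = 0.323).

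Kcnj8, the pore of the ATP-sensitive potassium channel of pericytes and vascular smooth muscle, had levels of -3.07, -2.80 and -3.12 in TBI, -3.98 and -4.00 in Sham and -3.09, -3.17 and -3.48 in Naive. The Sham arrays were the low ones. The rise from Sham was 0.99 ± 0.27 (adjusted p = 0.0378).

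Markers of other cell types differed between the same arrays. The summed level of the 4 tested blood leukocyte markers (of 6 listed) was 0.645, 3.21 and 1.69 in TBI 1, 2 and 3, against 0.297 to 0.437 in Sham and 0.113 to 0.134 in Naive, and 2 of the 4 were higher in TBI than in Sham, S100a8 by 3.77 and S100a9 by 2.95. The array lowest in leukocyte markers among the TBI arrays was also the one lowest in Kcnn4. Of 8 microglia and macrophage markers, Itgam (1.40) and Cd68 (2.69) were higher and P2ry12 (-1.41) and Tmem119 (-2.17) lower in TBI than in Sham, and their summed level was 10.1 to 12.7 in TBI and 9.58 to 14.3 in Sham. Mural cell markers summed to 1.84, 9.33 and 5.10 in TBI 1, 2 and 3 and to 1.60 to 1.93 in Sham, with 0 of 5 called. The part of these cells in the rises of Kcnn4, Kcnk13 and Kcnj8 was not tested, and in tissue samples fewer or more cells of a type cannot be told apart from less or more RNA per cell.

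Inward rectifiers held 3 of the 9 genes that were lower in TBI than in Sham. Kcnj4, a strong inward rectifier of forebrain neurons, had levels of -5.02, -4.98 and -5.10 in TBI, -3.07 and -2.91 in Sham and -3.15, -4.12 and -3.9 in Naive. The 3 TBI arrays were close together and below all 5 control arrays. It fell by 2.04 ± 0.28 against Sham (adjusted p = 0.00507), the smallest adjusted p of the 81 genes, and by 1.31 ± 0.25 against Naive (adjusted p = 0.0148). Its probe lies at chr7:117602501-117602560 of rn4.

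Kcnj9, a subunit of the G protein-gated channels that inhibitory receptors open, was at -4.22, -4.07 and -4.62 in TBI, -3.00 and -2.62 in Sham and -3.11, -3.76 and -4.02 in Naive. It was lower in TBI than in Sham by a difference of -1.49 ± 0.30 (adjusted p = 0.0136), and its second probe gave -1.82 (adjusted p = 0.0200). The Naive arrays lay between the Sham and TBI arrays.

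Kcnj11, the pore of the ATP-sensitive channel of neurons, was at -5.17, -5.88 and -5.76 in TBI and at -3.96 and -3.48 in Sham. The Naive arrays, at -4.86, -5.96 and -6.00, were spread around the TBI values. The TBI to Sham difference was -1.88 ± 0.41 (adjusted p = 0.0188) and was lost under quantile normalization (adjusted p = 0.0598). Among the other inward rectifiers, the G protein-gated subunits Kcnj3 and Kcnj6 had differences of -0.37 and 0.20 that did not pass the test, although a second Kcnj3 probe was lower by -0.90 (adjusted p = 0.0457).

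Beta subunits and KChIPs were all below 0 in TBI vs. Sham, with a median of -0.79 over the 7 genes, of which 3 passed the test. Kcnab2, which encodes the beta2 subunit that helps carry Kv1 channels to the axon, was at -2.88, -4.65 and -3.81 in TBI, -1.76 and -1.66 in Sham and -3.73, -3.65 and -3.89 in Naive. Sham was the group that stood apart, and TBI overlapped Naive. The difference from Sham was -2.07 ± 0.36 (adjusted p = 0.00829). A second probe of Kcnab1, the gene of the beta1 subunit, was lower by -2.01 (adjusted p = 0.0151), while its brightest probe gave -0.48.

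Kcnip2 and Kcnip4 encode KChIPs, the calcium-binding partners of the Kv4 pore. Kcnip2 was at -1.25, -2.82 and -2.37 in TBI, -0.37 and -0.26 in Sham and -2.38, -2.13 and -1.97 in Naive, a difference of -1.83 ± 0.35 from Sham (adjusted p = 0.0122). Kcnip4 was at -2.40, -3.25 and -3.60 in TBI and at -1.62 and -2.24 in Sham (adjusted p = 0.0391). Its Naive levels of -2.84, -2.57 and -2.97 lay within the TBI range and below both Sham arrays. In both genes TBI 1 was the highest of the TBI arrays and nearest to Sham.

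Among pore-forming Kv genes, Kcnd3, which encodes a Kv4 subunit of hippocampal interneurons and dentate granule cells, was not well above background on any of the 3 TBI arrays. It was at -6.97, -6.09 and -6.32 there and at -5.06 and -4.40 in Sham, so that it was at least 2.36-fold lower in TBI (adjusted p = 0.0230, and 0.0666 under quantile normalization). Kcnd2, the Kv4 gene of pyramidal cell dendrites, had levels of -0.50, -1.21 and -0.82 in TBI and -0.01 and -0.61 in Sham, which overlapped. The silent subunit gene Kcng4, also not above background in TBI, was at -7.44, -6.95 and -7.88 there, at -5.83 and -5.33 in Sham and at -7.82, -7.34 and -8.15 in Naive, and was at least 1.31-fold lower in TBI than in Sham (adjusted p = 0.00581). Kcnq5l, named Kcnq5 in RefSeq and a subunit of the M-current, was at -5.73, -6.06 and -6.12 in TBI and at -4.71 and -4.73 in Sham, a difference of -1.25 ± 0.28 (adjusted p = 0.0197).

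**Figure D2:**
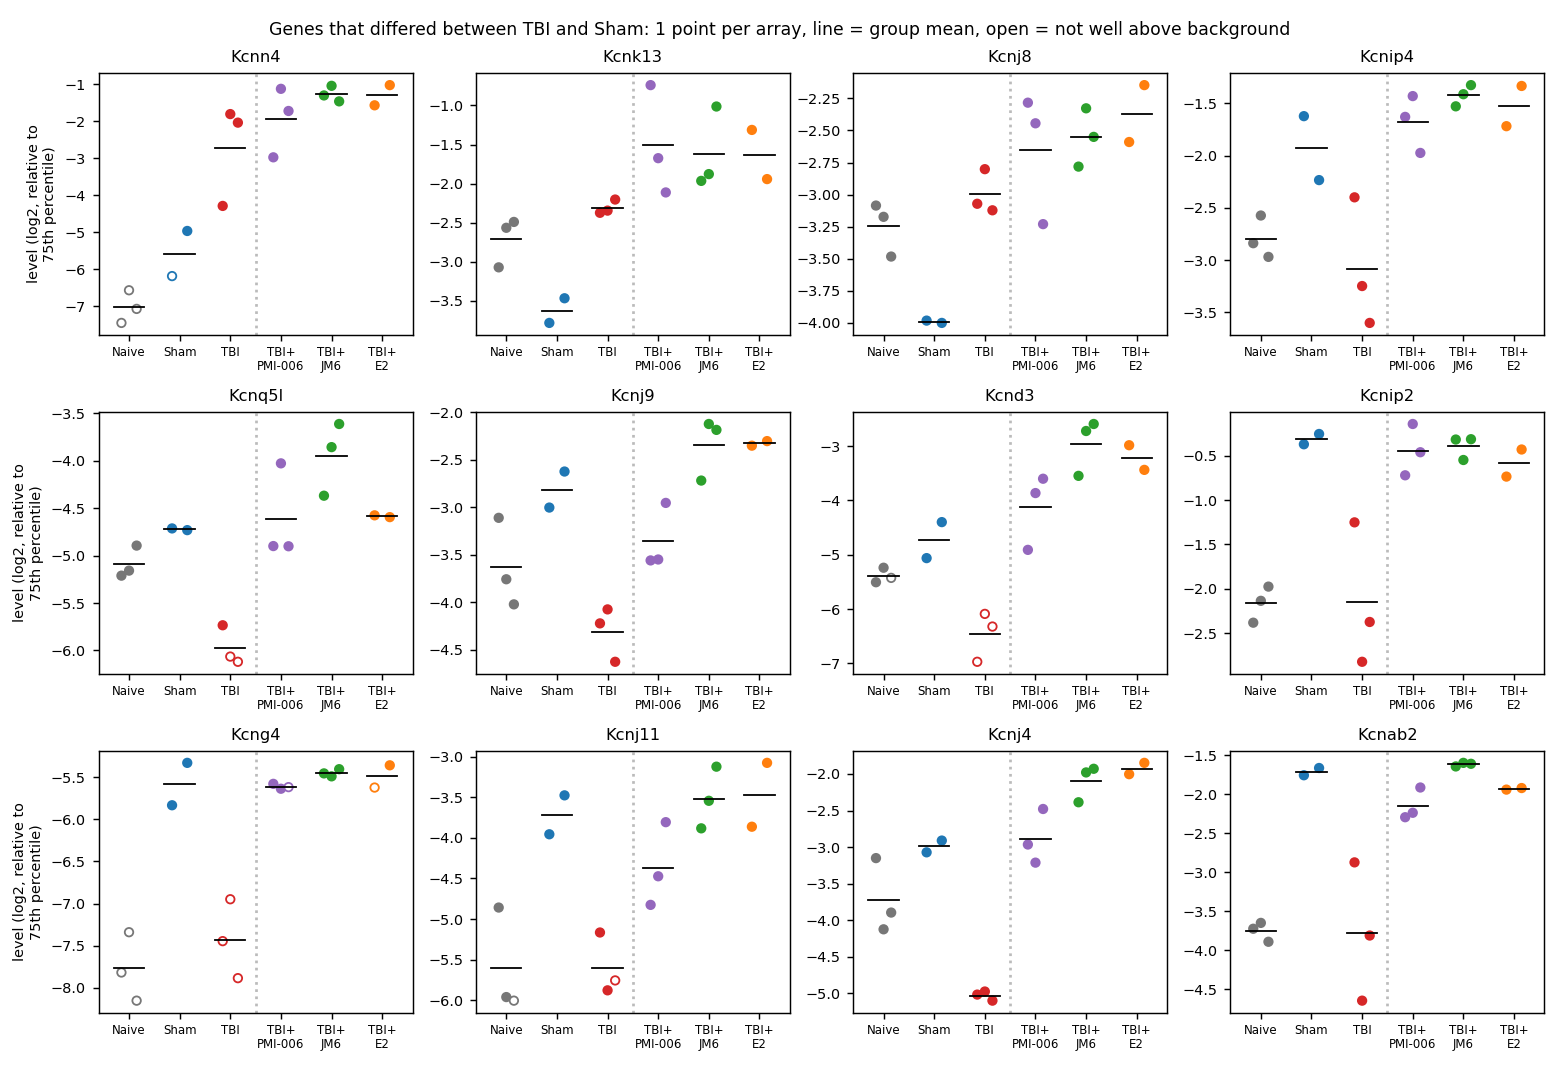
Levels of the 12 genes that differed between TBI and Sham, as log2 relative to the 75th percentile, by group, with a point per array, a line at the group mean and open points where the probe was not well above background. In Kcnab2, Kcnip2, Kcnj11 and Kcng4 the Sham arrays sit above the Naive and TBI arrays, and in Kcnj4 the TBI arrays sit at -5.10 to -4.98, under all Naive and Sham arrays.

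Markers of resident cell types were compared between the same arrays. Summed neuronal markers were 32.5 to 40.2 in TBI and 43.7 to 51.0 in Sham with 1 of 8 called (Snap25, -0.67), summed dentate gyrus markers were 0.419 to 0.943 and 2.16 to 2.22 with 1 of 4 called (C1ql2, -1.78), and summed oligodendrocyte markers were 54.0 to 109.4 and 110.0 to 115.0 with 3 of 6 called. Astrocyte markers summed to 48.1 to 54.0 in TBI and 57.2 to 67.8 in Sham with 0 of 8 called and a median difference of 0.08. Their part in the lower channel genes was not tested.

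Leaving out single arrays moved the TBI vs. Sham count to 5 without Sham 1, 3 without Sham 2, 18 without TBI 1, 6 without TBI 2 and 4 without TBI 3, and Kcnj4, Kcng4 and Kcnab2 were called in all 5 fits. No slide held both Sham and TBI arrays. With the slide as a fixed block, the link running through the Naive arrays, 0 of 81 genes passed in the limma fit (11 at an unadjusted p under 0.05), and the 12 genes had differences of the same sign, from -2.12 to -0.89 for those lower and from 0.99 to 2.93 for those higher. With a normexp background correction, 0 genes passed (6 at an unadjusted p under 0.05), and the differences of Kcng4, Kcnd3 and Kcnq5l turned to 0.21, 0.084 and 0.046.

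Against Naive rats, TBI rats had higher Kcnn4 and lower expression of 7 genes from 5 families. The 8 genes of 81 compare with 4.71% of all probes, and the split compares with 2.98% higher and 1.73% lower. The median over the 81 genes was -0.37, with 54 below 0, and that of all probes was 0.04. Because TBI 1 to 3 shared their slide with Naive 3, a difference can also be read within that slide from a single Naive array. The comparisons with Sham and with Naive use the same TBI arrays, so their values are not independent.

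Kcnn4 was above background on no Naive array, and its rise in TBI was at least 10.1-fold (adjusted p = 0.00438). The 4 tested leukocyte markers were all higher in TBI than in Naive, and S100a8 and Cd3e among them were not above background on any Naive array. Whether leukocytes account for Kcnn4 was not tested.

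Kcnc2, a fast Kv subunit of fast-spiking interneurons, was at -2.44, -3.04 and -3.01 in TBI and at -1.3, -0.92 and -1.35 in Naive. It fell by 1.64 ± 0.25 against Naive (adjusted p = 0.00626) and by 1.48 within the slide, and its second probe gave -0.83 (adjusted p = 0.155). The Sham arrays, at -2.84 and -2.06, were at TBI levels.

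Kcnk3, an acid-sensitive two-pore leak channel, was at -4.32, -4.85 and -4.98 in TBI and at -2.50, -2.83 and -3.71 in Naive, a difference of -1.70 ± 0.35 (adjusted p = 0.0191) that was -1.0 within the slide. The Naive array on the TBI slide was the lowest of the Naive arrays. Kcng1, a silent subunit gene, was at -4.22, -4.81 and -4.97 in TBI and at -2.68, -2.82 and -2.69 in Naive (adjusted p = 0.0370). Its second probe went the other way, with a difference of 0.98 (adjusted p = 0.23), and the Sham arrays were far apart at -4.29 and -1.95.

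The smaller changes against Naive were in the delayed rectifier gene Kcnb2 (-0.96 ± 0.24, adjusted p = 0.0407), the large-conductance calcium-activated channel gene Kcnma1 (-0.61 ± 0.15, adjusted p = 0.0343) and the Kv1 gene Kcna5. Kcnma1 was at -3.63, -3.60 and -3.39 in TBI and at -2.99, -2.89 and -2.92 in Naive, and its second probe gave -1.08 (adjusted p = 0.0402). The call of its brightest probe was lost in all 6 limma fits that left out 1 array (adjusted p from 0.0524 to 0.106). Kcna5 was above background on 1 of 3 Naive arrays and on none of TBI, which makes it at least 1.04-fold lower there (adjusted p = 0.0387).

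The count against Naive was 2 without Naive 1, 4 without Naive 2, 4 without Naive 3, 5 without TBI 2 and 2 without TBI 3, and Kcnn4 and Kcnc2 were called in all 6 fits. With the slide as a fixed block 0 genes passed in the limma fit (10 at an unadjusted p under 0.05), as with the normexp correction (4), where Kcna5 turned to 0.24.

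Sham rats differed from Naive rats in 8 of 81 genes, against 8.07% of all probes, with 5 higher (6.55% of all probes) and 3 lower (1.51%). Sham 1 and 2 shared a slide with Naive 1 and 2, which allows the same difference within that slide. Kcng4 (at least 1.38-fold, adjusted p = 0.0023), Kcnab2 (2.04 ± 0.36, adjusted p = 0.0068), Kcnj11 (1.89 ± 0.41, adjusted p = 0.0172) and Kcnip2 (1.85 ± 0.35, adjusted p = 0.00982) were among those higher in Sham. Within the slide the differences of Kcnab2, Kcnj11 and Kcnip2 were 1.98, 1.69 and 1.94, and Kcng4 was not above background on either Naive array there.

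Of the 9 genes lower in TBI than in Sham, 4 were these same genes (Kcng4, Kcnab2, Kcnj11 and Kcnip2), and the TBI vs. Naive differences of Kcnab2, Kcnj11 and Kcnip2 were -0.02, 0.01 and 0.01. Kcng4 was not above background on any TBI or Naive array, so TBI and Naive cannot be compared for it. Both comparisons use the Sham arrays, so a high Sham value enters each of them. Kcnj4 was the 1 gene of the 9 that was also lower in TBI than in Naive.

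Kcnc2 (-1.26 ± 0.28, adjusted p = 0.0186), Kcnn3 (-1.25 ± 0.32, adjusted p = 0.0327) and Kcna5 (at least 1.32-fold, adjusted p = 0.0227) were lower in Sham than in Naive. Kcnn3, a small-conductance calcium-activated channel, was at -3.72 and -3.64 in Sham, -2.60, -2.0 and -2.70 in Naive and -3.93, -2.94 and -3.40 in TBI. Its call was lost when any 1 Naive array was left out. Kcnc2 and Kcna5 were lower than Naive in both Sham and TBI, and both comparisons use the same Naive arrays. The second Kcnc2 probe gave -0.40 in Sham vs. Naive (limma adjusted p = 0.567). The count was 4 without Naive 3, 3 without Sham 1 and 2 without Sham 2, and Kcng4 was called in all 5 fits. With the slide as a fixed block 0 genes passed in the limma fit (20 at an unadjusted p under 0.05), as with the normexp correction (5).

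Of 11 tested genes whose products work with potassium channels, 3 were lower in TBI than in Sham, beside 6.46% of all probes, and the median of the 11 was -0.50. These were Dlg4, the synaptic scaffold that binds Kv1 and inward rectifier channels (-2.10), Dpp6, a partner of Kv4 (-0.96), and Amigo1, a partner of Kv2, which was not above background on any TBI or Naive array (adjusted p = 0.0122). Of 3 tested HCN genes, which encode the hyperpolarization-activated cation channels, Hcn2 was lower (-1.99). The same 3 partners were higher in Sham than in Naive, beside 6.55% of all probes, with a median of 0.20 over the 11, and so was Hcn2. The Sham vs. Naive differences were 1.90 for Dlg4, 0.84 for Dpp6 and 1.56 for Hcn2, and the last 2 were not called under quantile normalization (adjusted p = 0.0776 and 0.09). None of the 4 was called in TBI vs. Naive.

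Other well known hippocampal channel genes did not pass the test in any comparison of Naive, Sham and TBI. The axonal Kv1 gene Kcna1 ranged from 0.65 to 1.22 over the 8 arrays. The neuronal beta subunit gene of the large-conductance channel, Kcnmb4, lay between 0.50 and 0.88, and the mechano-gated two-pore channel gene Kcnk2 between -1.45 and -0.49. Wider ranges were seen for the two-pore channel gene Kcnk1 (-3.27 to -1.43), the ERG channel gene Kcnh2 (-4.57 to -3.02), the sodium-activated channel gene Kcnt1 (-3.94 to -1.79) and the small-conductance channel gene Kcnn2 (-7.66 to -4.49). The M-current gene Kcnq3 ran from -1.81 in Sham 1 to 1.2 in Naive 3 and had no value on Naive 1. The A-type Kv1 gene Kcna4 ranged from -2.74 to -1.45, the fast Kv3 gene Kcnc1 from -3.77 to -2.46, the astrocytic inward rectifier gene Kcnj16 from -5.24 to -2.86 and the two-pore channel gene Kcnk6 from -4.34 to -3.0. The axonal Kv1 gene Kcna2 was above background on 0 of the 8 arrays of the first session and the strong inward rectifier gene Kcnj2 on TBI 2 alone, with levels from -8.46 to -6.11 and from -8.29 to -5.9. The groups Sham (-1.81 and -1.50) and Naive (0.73 and 1.2) did not overlap in Kcnq3 (limma adjusted p = 0.0859). The same held for 36 of the 81 genes. The share over all probes was not counted there either, so that number is no result about these genes. A second Kcnq3 probe, above background on all 16 arrays, went the other way. It gave 0.43 (adjusted p = 0.497) in Sham vs. Naive, where the brightest probe gave -2.62. In TBI vs. Sham it gave -0.32, against 1.84 for the brightest probe.

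Kcnj13 and Kcne2, both known from the choroid plexus, were high on the arrays that were high in its markers. Kcnj13, an inward rectifier of that epithelium, was at -2.48 in Naive 2, -1.02 in Sham 1 and 0.10 in TBI+PMI-006 1, and lay between -8.47 and -6.58 on the other 13 arrays. Kcne2, an accessory subunit of its KCNQ channel, was at -1.41 in Naive 2 and 0.52 in TBI+PMI-006 1, had no value on Sham 1 and lay between -5.46 and -3.17 elsewhere. The choroid plexus is adjacent to the hippocampus, and 0 of its 7 tested markers were called between TBI and Sham although their median difference was -3.23. Without these 3 arrays, an alternative chosen after seeing the data, 4 genes were called in TBI vs. Sham (0 higher), 5 in TBI vs. Naive (1 higher) and 3 in Sham vs. Naive (all higher).

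**Figure D3:**
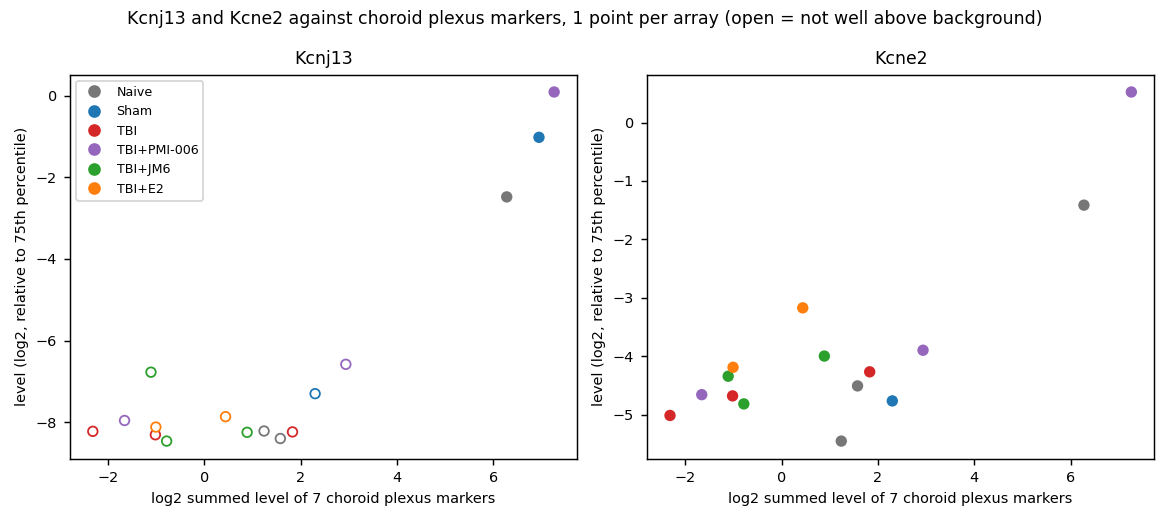
Level of Kcnj13 and Kcne2 (log2, relative to the 75th percentile) against the log2 summed level of 7 choroid plexus markers, with a point per array coloured by group and open points where the probe was not well above background. Naive 2, Sham 1 and TBI+PMI-006 1 lie at the right, where Kcnj13 is at -2.48 or above, and Kcne2 has no point for Sham 1.

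From 51 to 64 of the 81 potassium channel genes were higher in a drug group than in TBI at the 75th percentile scaling, and so were most probes of the array. The 81 include the 7 genes that were tested only because drug groups were above background. In TBI+JM6 64 of 81 genes were higher and 0 lower, against 70.1% of all probes (69.9% higher and 0.175% lower). In TBI+PMI-006 51 were higher and 0 lower, against 56.7% of all probes (56.7% and 0.0482%). In TBI+E2 61 were higher and 0 lower, against 70.3% of all probes (70.2% and 0.092%). The median over the genes was 1.39, 0.92 and 1.47 in the 3 groups, and over all probes it was 0.99, 0.79 and 1.08. All drug arrays were scanned in the second session and all TBI arrays in the first, so drug and session cannot be told apart in any of these comparisons.

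Quantile normalization, under which all arrays share a single distribution of values, removed the shift of all probes and changed the sign of 36, 43 and 34 of the 81 differences for JM6, PMI-006 and E2. It left 17 genes called for JM6, 12 higher and 5 lower, against 27.2% of all probes (13.9% and 13.3%). For PMI-006 it left 9, 5 higher and 4 lower, against 19.2% (9.96% and 9.2%), and for E2 it left 9, 7 higher and 2 lower, against 20.4% (10.4% and 9.98%). The Kv4 gene Kcnd1 was called lower in all 3 drug groups under quantile normalization, at -0.84, -0.77 and -0.61 for JM6, PMI-006 and E2, whereas at the 75th percentile scaling it was not called and its differences were 0.15, 0.04 and 0.43. Kcnj5 was called higher in TBI+PMI-006 at one scaling (0.75) and lower at the other (-0.62).

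**Figure D4:**
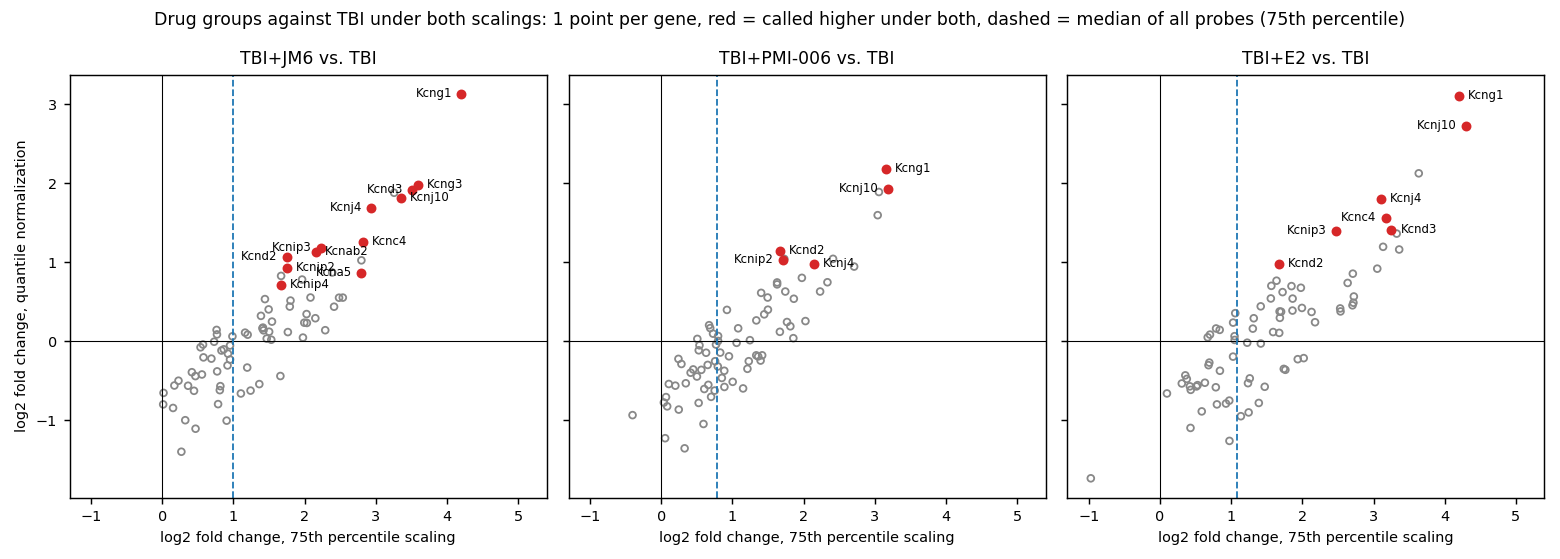
Log2 fold change of tested potassium channel genes in the 3 drug groups against TBI, at the 75th percentile scaling (x axis) and under quantile normalization (y axis), with red points for genes called higher under both and a dashed line at the median of all probes at the 75th percentile scaling. The cloud crosses 0 on the y axis but lies almost wholly right of 0 on the x axis.

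Kcng1, Kcnj10, Kcnj4 and Kcnd2 were higher than in TBI in all 3 drug groups under both scalings. Of these, Kcnj10 was tested only because drug groups were above background, so its calls are no independent support. Kcnj10, which encodes the main inward rectifier of astrocytes, was not above background on any Naive, Sham or TBI array and was above it on all 8 drug arrays, by a single probe at chr13:88370332-88370391 of rn4. It was at -5.10, -4.58 and -5.08 in TBI+PMI-006, -4.78, -4.83 and -4.64 in TBI+JM6, -3.84 and -3.78 in TBI+E2 and -8.10, -8.10 and -8.11 in TBI. It was at least 2.07-fold higher in PMI-006, 2.32-fold in JM6 and 4.46-fold in E2 than in TBI. The levels in Naive, from -8.33 to -8.09, were also far under those of the drug groups, so the step in this gene coincided with the change of session in all groups. With the normexp correction none of the 3 comparisons passed. Astrocyte markers summed to 62.8 to 87.1 on the drug arrays and 48.1 to 54.0 on the TBI arrays. Their median differences from TBI were 0.23, 0.38 and 0.56 for PMI-006, JM6 and E2, below the 0.79, 0.99 and 1.08 of all probes. Under quantile normalization these medians were -0.22, -0.25 and -0.06. The part of astrocytes in the Kcnj10 levels was not tested.

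Kcng1 was at -1.65, -2.07 and -0.83 in TBI+PMI-006, -0.80, -0.41 and -0.20 in TBI+JM6 and -0.54 and -0.40 in TBI+E2. All 8 values were above the TBI levels and all but 1 above every Sham and Naive array, the exception being TBI+PMI-006 2 at -2.07, which was under Sham 2. The differences from TBI were 3.15 ± 0.47, 4.20 ± 0.47 and 4.19 ± 0.53 for PMI-006, JM6 and E2, and under quantile normalization they were 2.18, 3.13 and 3.1 (limma adjusted p = 0.00895, 0.0011 and 0.0028). The second Kcng1 probe gave smaller differences, 1.78, 2.66 and 3.13 for PMI-006, JM6 and E2. Under quantile normalization that probe gave 0.14, 0.98 and 1.34.

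Kcnj4 was at -2.96, -3.21 and -2.48 in TBI+PMI-006, -2.39, -1.98 and -1.93 in TBI+JM6 and -2.0 and -1.85 in TBI+E2. These values overlapped the Sham range in TBI+PMI-006 and were above it in TBI+JM6 and TBI+E2. The differences from TBI were 2.15 ± 0.25, 2.93 ± 0.25 and 3.11 ± 0.28 for PMI-006, JM6 and E2, and under quantile normalization 0.98, 1.68 and 1.80. Kcnd2 was at 0.64, 0.98 and 0.87 in TBI+PMI-006, 0.98, 0.68 and 1.06 in TBI+JM6 and 0.59 and 1.08 in TBI+E2, above all 8 arrays of the first session, and its quantile differences were 1.15, 1.07 and 0.98. The second Kcnd2 probe, above background on all 16 arrays, gave smaller quantile differences of 0.54, 0.27 and 0.26 for PMI-006, JM6 and E2.

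Other Kv4 and Kv3 genes passed under both scalings in some drug groups. Kcnd3 exceeded its TBI level by at least 8.08-fold in TBI+JM6 and 6.76-fold in TBI+E2, and Kcnc4, a fast-inactivating Kv3 subunit, by at least 6.48-fold and 8.24-fold. Kcnip3, a KChIP that also acts as a transcriptional repressor, was higher in TBI+JM6 (2.23 ± 0.34) and TBI+E2 (2.47 ± 0.38). Kcnip2 was higher under both scalings in TBI+PMI-006 (1.71 ± 0.31, and 1.03 under quantile normalization) and TBI+JM6 (1.75 ± 0.31, and 0.93), and Kcnab2 and the silent subunit gene Kcng3 in TBI+JM6. Kcng3 was above background on no Naive, Sham or TBI array. It was tested only because drug groups were above background, so its call in TBI+JM6 is no independent support. That a gene passed in one drug group and not in another was not a test of a difference between them.

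**Figure D5:**
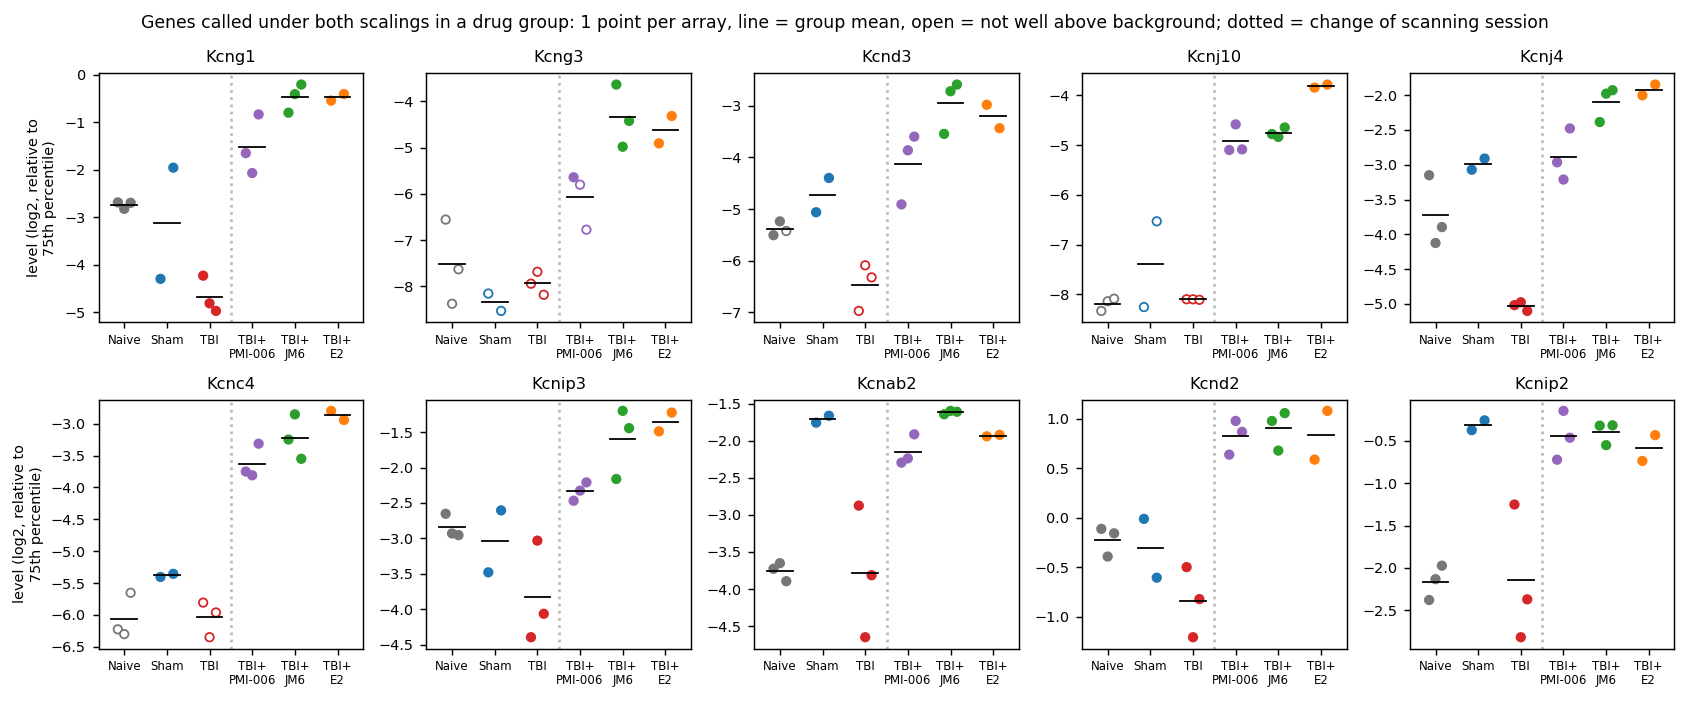
Levels (log2, relative to the 75th percentile) of the genes named for passing under both scalings in at least 1 drug group, with a point per array, a line at the group mean, open points where the probe was not well above background and a dotted line between the scanning sessions. Kcnj10 is open on all 8 arrays left of the dotted line and filled on all 8 to its right.

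The drug groups, all from the second session, did not differ from each other in any of the 81 genes after adjustment. For JM6 vs. PMI-006, JM6 vs. E2 and PMI-006 vs. E2 the limma fit called 0, 0 and 0 genes, against 0.0131%, 0.0175% and 0.11% of all probes, and 14, 4 and 27 genes had an unadjusted p under 0.05. The smallest adjusted p was 0.302, 0.9999 and 0.159. The differences of Kcnd2 were 0.08 (95% confidence interval -0.41 to 0.56), 0.07 (-0.48 to 0.62) and -0.01 (-0.55 to 0.54). Those of Kcnj10 were 0.17 (-0.52 to 0.86), -0.94 (-1.71 to -0.17) and -1.11 (-1.88 to -0.34), so that before adjustment the interval of both comparisons with E2 was below 0. For Kcnj4 they were 0.79 (0.25 to 1.33), -0.17 (-0.78 to 0.43) and -0.96 (-1.57 to -0.35). Of the 81 differences of TBI+PMI-006 from TBI+E2, 70 were below 0 at the 75th percentile scaling and 47 under quantile normalization. These groups shared no slide, and the median of all probes in that comparison was -0.26, or -0.03 with the slide as a fixed block.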

How the data were processed

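Total RNA of whole hippocampus was hybridised to 16 single-colour Agilent rat arrays. As deposited by the authors, spot intensity came from Agilent Feature Extraction 9.5.3.1, background subtracted and not normalized between arrays. The authors' deposited matrix, a ratio to the 75th percentile, served as an alternative. Outlier-flagged spots were dropped, the spots of a probe averaged, and log2 taken of the signal over the array's 75th percentile among probes well above background. A probe was tested where it was above background throughout at least 1 group, which held for 22821 of 30367. These were fitted over the 16 arrays in a single limma 3.58.1 model (R 4.3.3; residual degrees of freedom, 10), with calls at an adjusted p (Benjamini-Hochberg) under 0.05. The number of arrays limits precision. Where a whole group was not above background, the fold is a bound, set by the lowest level among probes above background there. Named genes were those called among TBI, Sham and Naive, at most 8 per drug group called under both scalings, ranked by the smaller fold change, and a list of well known channels, some of which are not reported here by name although counts include them. Members and lists were chosen with earlier results of these data known. The model was tested on simulated data. Alternatives were quantile normalization, the percentile of all probes, normexp (offset 50), other probe filters, a fit of the compared groups only, the methods' t-test, slide and replicate blocks, the mean of a gene's probes and leaving out each array. Slide 1 held Sham 1 and 2 with Naive 1 and 2. Slide 2 held TBI 1 to 3 with Naive 3. Slide 3 held TBI+PMI-006 1 to 3 with TBI+JM6 1. Slide 4 held TBI+E2 1 and 2 with TBI+JM6 2 and 3. All 90 genes matched a RefSeq symbol, and 2 of these differed from the array's name.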

Additional observations from a re-analysis of the deposited data

How the results depend on the processing

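Counts of called genes among Naive, Sham and TBI depended on the fit, and the causes were not tested beyond what each alternative shows by its construction. For TBI vs. Sham, TBI vs. Naive and Sham vs. Naive the normexp correction left 0, 0 and 0 (6, 4 and 5 at an unadjusted p under 0.05), and turned the differences of Kcng4 (0.21), Kcnd3 (0.084) and Kcnq5l (0.046) in TBI vs. Sham and of Kcna5 (0.24) in TBI vs. Naive. Limma on the compared groups alone, with fewer samples, left 0, 0 and 4 (25 and 25 unadjusted in the first 2), the methods' t-test after adjustment 0, 0 and 0 (13, 17 and 17 unadjusted), and the slide as a fixed block 0, 0 and 0 (11, 10 and 20 unadjusted). The slide as a random block gave 21 for TBI vs. Sham and 13 for TBI vs. Naive. The methods' t-test at an unadjusted p under 0.05 and over 1.2-fold gave 17 for TBI vs. Naive and 17 for Sham vs. Naive. The 75th percentile of all probes gave 14 and no filter 4 for TBI vs. Naive, and testing only probes above background on all 16 arrays gave 5 for Sham vs. Naive, where fewer genes were tested. Without the 3 arrays high in choroid plexus markers the counts were 4, 5 and 3. Leaving out single arrays gave 3 to 18, 2 to 11 and 2 to 8.

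In TBI+JM6, TBI+PMI-006 and TBI+E2 against TBI, quantile normalization gave 17, 9 and 9, the 75th percentile of all probes 31, 25 and 30, normexp 13, 2 and 8, the probes above background on all arrays 38, 30 and 36, the authors' matrix 19, 9 and 10 and the adjusted t-test 42, 27 and 34. Leaving out single arrays gave 54 to 63, 37 to 52 and 49 to 61. In the comparisons of drug groups, no filter gave 1 for JM6 vs. PMI-006 and 1 for JM6 vs. E2, the unadjusted t-test 10, 4 and 19, and leaving out single arrays 0 in all limma fits.

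Replicate numbers did not pair the arrays: residuals of same-numbered arrays of different groups had a median correlation of 0.0105 (-0.32 to 0.21), and 7 of 16 arrays correlated best with their own number. With the replicate number as a block, TBI vs. Sham gave 10 calls, TBI vs. Naive 8 and Sham vs. Naive 7. Signal over background limits the genes read from dim probes: 48 of 90 were above background on every array.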
